A study of Mus musculus with 54 samples.

Results

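Described here are the 9 genes of the inhibin, activin, follistatin and anti-Müllerian hormone (AMH) group that were chosen by symbol: *Inha*, *Inhba*, *Inhbb*, *Amh*, *Amhr2*, *Tgfbr3*, *Fst*, *Fstl3* and *Fstl1*. All 9 were found among the 25149 genes of the deposited coding tables. The samples were sides of the walls of single ovarian follicles, taken from CD-1 mice at an age of 14 to 16 days by enzymatic isolation, grown in alginate gel for 8 days and cultured for a further 12 h in maturation medium with serum, EGF and recombinant FSH. Both media held these additions, and only the post-hCG groups also received human chorionic gonadotropin (hCG), an analog of luteinizing hormone that induces ovulation. The 4 groups were the putative unruptured side (n = 15 libraries) and putative ruptured side (n = 14) without hCG, and the unruptured side (n = 12) and ruptured side (n = 13) post-hCG, 54 in all. Without hCG no rupture had taken place, so these sides were told apart by their shape and optical density. Much of the theca layer is lost in enzymatic isolation and grows back in culture, which limits the model. The tissue is given as cumulus-oocyte complex in the labels, but by the methods this complex was thrown away and what was sequenced were the follicle sides.

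Inhibins and activins are dimers of the TGF-β family made mainly by granulosa cells. A β subunit, encoded by *Inhba* (βA) or *Inhbb* (βB), pairs with the α subunit from *Inha* to give inhibin, which lowers pituitary FSH release, whereas β subunits that pair with each other give activin, which raises FSH release and acts on granulosa cells through type I and type II receptors and SMAD2 and SMAD3. Follistatin (*Fst*) and its relative FSTL3 bind activin and keep it from its receptors. Betaglycan (*Tgfbr3*) is a co-receptor through which inhibin antagonizes activin, and AMH, a hormone of growing follicles, signals through its own type II receptor AMHR2.

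Total counts per library ran from 1497071 to 2834734 with a median of 2157092, and the putative ruptured libraries were shallower (median 1744896) than the putative unruptured ones (median 2362975). Summed granulosa markers were present in every library, from 384 to 8590 TPM. Theca and stroma markers had a median sum of 541 TPM on the putative unruptured, 43.2 on the putative ruptured, 360 on the unruptured and 7.51 on the ruptured side. Oocyte markers had median sums of at most 0.20 TPM, with 135 TPM in putative unruptured replicate 1. Summed markers of the LH response had medians of 55.1 and 36.7 TPM without hCG and of 695 and 712 TPM post-hCG. Of the libraries without hCG, putative unruptured replicates 1 and 14 and putative ruptured replicate 1 stood apart by oocyte markers or by a theca sum beyond the median of the other side. Log2 fold changes were also fitted without them, but ratios and correlations were computed only with them. Replicates are separate libraries whose origin from separate animals is not given, so that p-values measure the spread between these libraries. Follicles were cut into both sides, and which libraries share a follicle is not given.

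Levels are given in TPM, a measure corrected for transcript length and library size, and differences as log2 fold changes of counts with their standard error (SE) from edgeR, called at an adjusted p of 0.05. Of the 9 genes, 7 passed the filter on low counts between the sides without hCG and 8 in each of the other comparisons. *Amh* passed in none. The counting is not stated to use strand, and *Fstl3* overlaps *Prss57* on the opposite strand, *Inhba* the antisense gene *Gm48444* and the pseudogene *B230303A05Rik*, *Fst* the antisense gene *Gm47040* and *Tgfbr3* the pseudogene *Gm8145*, so that reads of these partners cannot be told apart from theirs. *Tgfbr3* also overlaps *Gm43422*, *Gm43423* and *Gm42900* on its own strand, where strand would not separate the reads either.

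**Figure D1:**
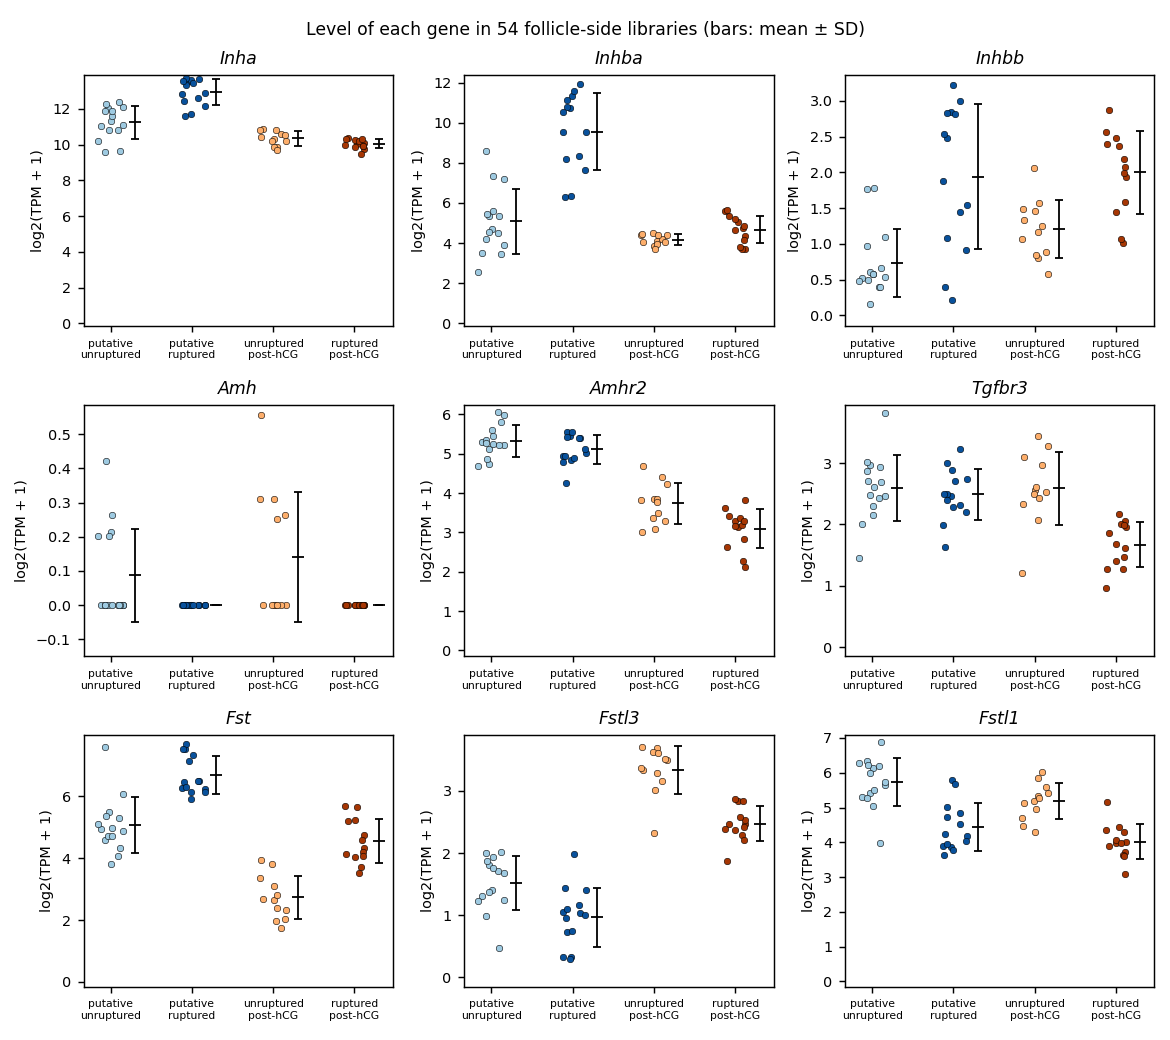
Level of each of the 9 genes as log2(TPM + 1) on the vertical axis in the 4 groups, with a point per library and bars for the mean ± SD. The putative ruptured libraries reach 3940 TPM for *Inhba* and 13424 TPM for *Inha*, while *Amh* is at 0 in all libraries of both ruptured sides.

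*Inha*, on chromosome 1 at 75507077 to 75510366 of GRCm38, was among the most abundant transcripts of these follicle sides. Its TPM had a median of 2594 (780 to 5382) on the putative unruptured and of 9027 (3151 to 13424) on the putative ruptured side. Post-hCG it was 820 to 1891 (median 1333) on the unruptured and 712 to 1323 (median 1051) on the ruptured side. Thus all 14 putative ruptured libraries exceeded the median of the opposite side, and all 13 ruptured libraries lay below each of them. *Inha* took 1.93% ± 0.80 (SD, n = 14) of all counts on the putative ruptured side, with a median rank of 8.5 among genes by TPM, and 0.213% ± 0.030 (SD, n = 13) on the ruptured side.

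*Inhba*, on chromosome 13 at 16011851 to 16031621, had the largest spread between libraries of the 9 genes without hCG. It spanned 4.94 to 388 TPM (median 25.4) in putative unruptured libraries and 76.8 to 3940 TPM (median 1119) in putative ruptured ones. The 2 post-hCG groups were much narrower, at 12.0 to 21.4 TPM (median 17.1) on the unruptured and 11.8 to 48.9 TPM (median 25.7) on the ruptured side. The SD of log2(TPM + 1) was 1.91 on the putative ruptured and 0.69 on the ruptured side, and 1.62 on the putative unruptured and 0.26 on the unruptured side. Putative unruptured replicate 15 alone held 44.8% of the *Inhba* counts of its group.

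*Inhbb*, on the minus strand of chromosome 1 at 119415465 to 119422248, encodes the alternative β subunit and was far less abundant. It was 0.12 to 2.44 TPM (median 0.50) on the putative unruptured and 0.16 to 8.29 TPM (median 3.62) on the putative ruptured side. With hCG it was 0.50 to 3.19 TPM (median 1.31) on the unruptured and 1.02 to 6.33 TPM (median 3.23) on the ruptured side. A library held between 2 and 120 counts of this gene, so single values are imprecise, and the groups overlapped in every comparison.

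For the β subunit genes, whose levels moved together between libraries as described further on, and for *Fstl3* and *Amhr2*, whose TPM did not overlap between media on the unruptured side, the 250 bases before the RefSeq start are shown 5′ to 3′ on the strand of the gene (RefSeq, GRCm38.p6). They are chr13:16011601-16011850 (plus strand) for *Inhba*, chr1:119422249-119422498 (minus strand) for *Inhbb*, chr10:79777024-79777273 (plus strand) for *Fstl3* and chr15:102445117-102445366 (plus strand) for *Amhr2*. Capitals mark matches on either strand to the motifs searched: the CRE core with the letters TGACG, the site of NR5A nuclear receptors with the letters AAGGTCA, the GATA factor site with the letters AGATAA, the SMAD-type box with the letters GTCTG, and the AP-1 site with the letters TGANTCA.
Inhba: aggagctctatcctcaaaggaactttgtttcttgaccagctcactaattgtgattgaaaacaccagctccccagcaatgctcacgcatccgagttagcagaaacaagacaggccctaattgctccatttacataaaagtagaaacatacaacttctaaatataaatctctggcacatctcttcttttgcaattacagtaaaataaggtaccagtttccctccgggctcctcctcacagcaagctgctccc
Inhbb: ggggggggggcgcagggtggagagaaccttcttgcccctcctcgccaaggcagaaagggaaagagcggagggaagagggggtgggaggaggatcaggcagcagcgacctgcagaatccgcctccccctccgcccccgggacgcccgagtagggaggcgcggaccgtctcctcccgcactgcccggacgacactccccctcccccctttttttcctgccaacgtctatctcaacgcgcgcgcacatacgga
Fstl3: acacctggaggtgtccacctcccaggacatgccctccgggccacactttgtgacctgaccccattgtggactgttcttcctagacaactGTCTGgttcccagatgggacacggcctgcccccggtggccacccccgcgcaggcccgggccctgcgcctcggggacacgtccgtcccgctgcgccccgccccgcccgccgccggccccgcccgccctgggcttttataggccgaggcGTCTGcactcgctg
Amhr2: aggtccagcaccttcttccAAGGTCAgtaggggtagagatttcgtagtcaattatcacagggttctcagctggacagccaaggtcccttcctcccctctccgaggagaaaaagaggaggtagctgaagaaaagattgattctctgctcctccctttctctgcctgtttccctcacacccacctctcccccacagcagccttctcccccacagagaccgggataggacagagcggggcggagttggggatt
The windows of *Inhba* and *Inhbb* held none of these letters. That of *Fstl3* held GTCTG at 161 and 14 bases before the start, and that of *Amhr2* held AAGGTCA at 231 bases before it. Of 32851 promoters of the same length, 42.2% held GTCTG, 4.08% AAGGTCA, 17.8% TGACG, 9.99% AGATAA and 6.75% TGANTCA. Such windows were at hand for 6 of the 9 genes. Those of *Inha* and *Fstl1*, which reached into the gene as placed by GENCODE, were searched too but are not shown. That of *Inha* held GTCTG at 186 bases before the RefSeq start, and that of *Fstl1* held none of the letters.

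Between the sides of follicles cultured without hCG, all 3 inhibin and activin subunit genes and *Fst* were higher on the putative ruptured side, and *Fstl1* was lower. *Inhba* differed most, with a log2 fold change of 4.46 (SE 0.64, adjusted p = 9.28e-06), and 9 of 14 putative ruptured libraries exceeded every putative unruptured library. *Inhbb* was higher by 2.36 (SE 0.42, adjusted p = 0.00016), above the putative unruptured median in 12 of 14 libraries, and *Inha* by 1.71 (SE 0.28, adjusted p = 6.04e-05). In all, 5 of the 7 genes tested were called, where 17.8% of all genes tested were called in this comparison, 8.84% higher and 8.96% lower. The *Inhba* value was 5.13 without putative unruptured replicate 15 and 4.43 without the 3 libraries that stood apart.

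*Fst*, on the minus strand of chromosome 13 at 114452290 to 114458951, encodes an activin-binding protein made by granulosa cells. It was 12.98 to 194 TPM (median 29.9) on the putative unruptured and 58.9 to 206 TPM (median 88.1) on the putative ruptured side, a log2 fold change of 1.46 (SE 0.33, adjusted p = 0.00175). Here too all 14 putative ruptured libraries exceeded the putative unruptured median, although putative unruptured replicate 15, which held 36.5% of its group's counts, lay among them.

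*Fstl1*, on chromosome 16 at 37776873 to 37836514, encodes a secreted glycoprotein related to follistatin by sequence that is typical of mesenchymal cells. It went the other way, from 14.9 to 118 TPM (median 52.7) in putative unruptured libraries down to 11.4 to 54.2 TPM (median 17.6) in putative ruptured ones. The log2 fold change was -1.53 (SE 0.31, adjusted p = 0.000585). Of the 10 theca and stroma markers tested in the same comparison, 8 were lower on the putative ruptured side, and of the 8 granulosa markers 7 were higher. The summed granulosa level rose from a median of 1712 TPM to 5675 TPM. Within that sum the gap junction gene *Gja1* alone had medians of 1429 and 3603 TPM. The part of these cell types in the differences was not tested, and fewer cells of a type and less RNA per cell cannot be told apart in such samples.

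*Amhr2*, on chromosome 15 at 102445367 to 102454633, was 24.6 to 65.2 TPM (median 37.9) on the putative unruptured and 18.1 to 46.2 TPM (median 32.5) on the putative ruptured side, a log2 fold change of -0.22 (SE 0.13, adjusted p = 0.248). *Tgfbr3*, on the minus strand of chromosome 5 at 107106570 to 107289629, had medians of 5.08 and 4.58 TPM on these sides and a log2 fold change of -0.04 (SE 0.18, adjusted p = 0.915). Neither receptor gene passed the test. *Fstl3*, on chromosome 10 at 79777272 to 79782630, did not pass the filter in this comparison, with 1 to 23 counts in a library. Its TPM was 0.39 to 3.06 (median 2.19) on the putative unruptured and 0.23 to 2.96 (median 1.03) on the putative ruptured side. In an edgeR fit with no filter its log2 fold change was -0.95 (SE 0.30, adjusted p = 0.0401).

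*Amh*, on chromosome 10 at 80805243 to 80807648, was at or near 0 throughout. A total of 12 counts was found in the 54 libraries, with at most 2 in any library. They came from 5 of 15 putative unruptured and 5 of 12 unruptured libraries, and all 27 libraries of the putative ruptured and ruptured sides were at 0. A group total of 0 allows up to 0.122 CPM (counts scaled by library total) on the putative ruptured and 0.103 on the ruptured side (3 counts of the total, counting error only), and the other sides held 6 counts each. As it did not pass the filter the difference was not tested, and no fold is given. Its ratio to *Amhr2* is not given either, since with *Amh* at or near 0 it mostly carries the level of *Amhr2*.

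Post-hCG, *Fst*, *Inhbb* and *Inhba* were again higher on the ruptured side, while *Fstl1*, *Tgfbr3*, *Fstl3* and *Amhr2* were lower and *Inha* did not pass the test. *Fst* led, at 2.38 to 14.3 TPM (median 5.39) on the unruptured and 10.6 to 50.4 TPM (median 19.3) on the ruptured side. Its log2 fold change was 2.34 (SE 0.29, adjusted p = 4.59e-07), and 11 of 13 ruptured libraries exceeded every unruptured library. Of the 8 genes tested 7 were called, where 21.4% of all genes tested were called and 11.3% were lower. None of the 9 genes separated the sides without overlap, in either medium, which 0.0304% of genes averaging 1 TPM or more did without hCG and 1.15% did post-hCG.

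Both β subunit genes were called between the sides post-hCG in the main fit. *Inhbb* was higher on the ruptured side by 1.49 on the log2 scale (SE 0.25, adjusted p = 3.67e-05), in 11 of 13 libraries above the unruptured median. *Inhba* was higher by 0.89 (SE 0.18, adjusted p = 0.000514), but the call was lost with limma on log2(TPM + 1), at 0.50, and in a fit of all 4 groups. By TPM 9 of 13 ruptured libraries lay above the unruptured median of *Inhba* and 4 below it. Of the 13, 8 exceeded every unruptured library and 2 lay below every one. For *Inha* the log2 fold change was -0.08 (SE 0.13, adjusted p = 0.715). On the TPM scale all 13 ruptured libraries lay below the unruptured median of *Inha*, and limma on log2(TPM + 1) gave -0.31 (adjusted p = 0.0799), a scale on which the median of all genes lay at -0.21.

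The binding protein *Fstl3* was 4.03 to 12.1 TPM (median 9.78) on the unruptured and 2.64 to 6.35 TPM (median 4.53) on the ruptured side, with a log2 fold change of -0.78 (SE 0.13, adjusted p = 3.14e-05). *Fst* and *Fstl3*, whose products bind the same ligands, were present on both sides but differed between them in opposite directions. Without hCG the directions were the same as post-hCG, with *Fstl3* fitted only where the filter kept it. *Fstl1* was 18.7 to 63.7 TPM (median 36.5) on the unruptured and 7.45 to 34.6 TPM (median 14.8) on the ruptured side (log2 fold change -1.03, SE 0.21, adjusted p = 0.000374). Theca and stroma markers differed in the same direction, 6 of 7 tested being lower on the ruptured side and their summed level falling from 81.7 to 1417 TPM in unruptured libraries to 3.84 to 58.5 TPM in ruptured ones, with *Cyp17a1* at 0 in the latter, and their part in the *Fstl1* difference was not tested.

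The receptor genes differed less. *Tgfbr3* was 1.31 to 9.91 TPM (median 4.84) on the unruptured and 0.96 to 3.51 TPM (median 2.20) on the ruptured side, with all 13 ruptured libraries below the unruptured median and a log2 fold change of -0.85 (SE 0.21, adjusted p = 0.00402). *Amhr2* was 7.09 to 24.6 TPM (median 12.9) on the unruptured and 3.37 to 13.3 TPM (median 8.04) on the ruptured side, with a log2 fold change of -0.50 (SE 0.17, adjusted p = 0.0353). The *Amhr2* call was lost when unruptured replicate 3, 4, 5 or 6 or ruptured replicate 1, 6, 11 or 12 was left out, with log2 fold changes of -0.39 to -0.48.

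**Figure D2:**
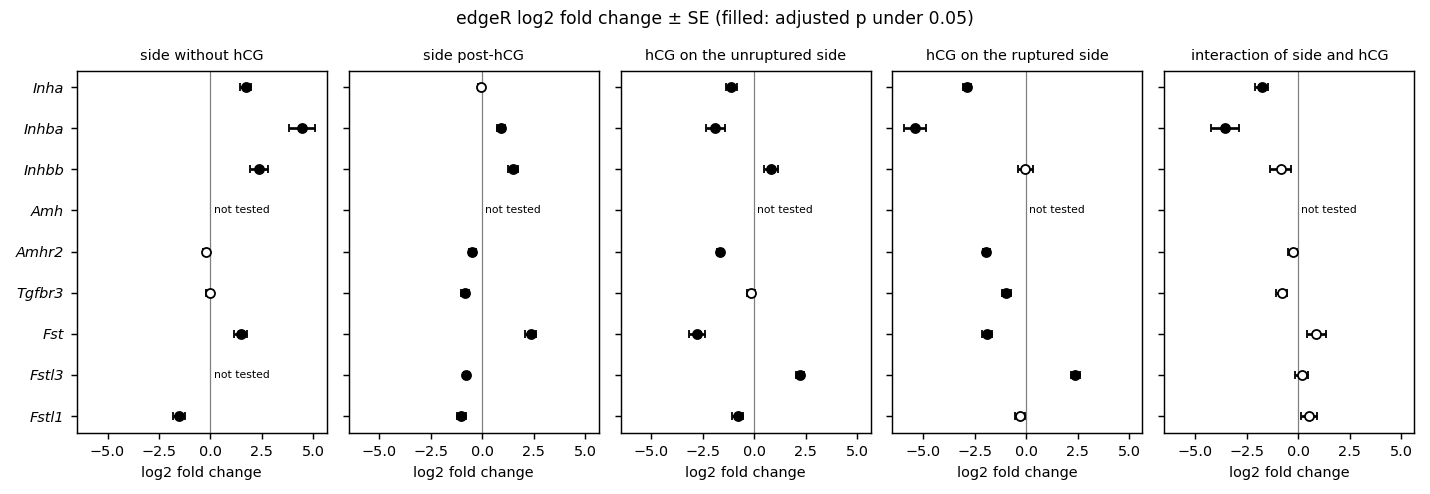
Log2 fold change (horizontal axis) with its SE for each gene in the 4 comparisons of 2 groups and in their interaction, with filled points where the adjusted p was under 0.05. Positive values are higher on the ruptured side or post-hCG, and *Inhba* spans from 4.46 between the sides without hCG to -5.42 with hCG on the ruptured side.

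The comparison of media on each side shares its libraries with the comparisons above. On the ruptured side, hCG was accompanied by lower *Inhba*, *Inha*, *Amhr2*, *Fst* and *Tgfbr3* and by higher *Fstl3*. *Inhba* fell by 5.42 on the log2 scale (SE 0.53, adjusted p = 1.55e-10), from a median of 1119 to 25.7 TPM, and *Inha* by 2.88 (SE 0.21, adjusted p = 1.97e-13). The libraries of the 2 groups did not overlap for *Inha*, *Inhba*, *Fst* and *Amhr2*, which was so for 7.04% of genes averaging 1 TPM or more. By the edgeR test 6 of 8 genes were called, where 60.1% of all genes tested were called, 29.7% higher and 30.4% lower.

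*Fst* fell by 1.91 on this side (SE 0.25, adjusted p = 8.97e-08) and *Amhr2* by 1.93 (SE 0.16, adjusted p = 1.75e-12), the latter to 3.37 to 13.3 TPM. *Tgfbr3* fell by 0.97 (SE 0.21, adjusted p = 0.000163). *Fstl3* was the only gene of the group called higher there, with a log2 fold change of 2.39 (SE 0.24, adjusted p = 2.03e-10), and all but 1 of the 13 ruptured libraries exceeded every putative ruptured library. *Inhbb* (log2 fold change -0.04, SE 0.35, adjusted p = 0.919) and *Fstl1* (-0.30, SE 0.25, adjusted p = 0.321) did not pass the test.

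On the unruptured side, hCG was accompanied by lower *Fst*, *Inhba*, *Amhr2*, *Inha* and *Fstl1* and by higher *Fstl3* and *Inhbb*. *Fst* had the largest fall, by 2.80 on the log2 scale (SE 0.40, adjusted p = 4.52e-07), and 10 of 12 unruptured libraries lay below every putative unruptured library. *Fstl3* rose by 2.23 (SE 0.18, adjusted p = 4.69e-12) and *Amhr2* fell by 1.66 (SE 0.15, adjusted p = 2.33e-11), each with no overlap of the groups, as for 5.08% of genes averaging 1 TPM or more. Called were 7 of 8 genes tested, where 53.1% of all genes tested were called, 25.4% higher and 27.7% lower.

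*Inha* fell by 1.11 (SE 0.26, adjusted p = 0.000483) on the unruptured side. *Inhba* fell by 1.89 (SE 0.47, adjusted p = 0.00115), but by 1.21 without putative unruptured replicate 15, and the call was lost with limma on log2(TPM + 1), at -0.92. *Inhbb* had a log2 fold change of 0.81 (SE 0.32, adjusted p = 0.0356), which was 0.66 without unruptured replicate 10 and 0.71 without putative unruptured replicates 1 and 14, neither passing the test. *Fstl1* fell by 0.80 (SE 0.27, adjusted p = 0.0136), a call lost with limma, and *Tgfbr3* did not pass (-0.17, SE 0.19, adjusted p = 0.446).

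Of the 8 granulosa markers, 5 fell and 2 rose with hCG on the unruptured side, and 6 fell and 1 rose on the ruptured side, where 27.7% and 30.4% of all genes tested fell. On the ruptured side their summed level went from 2532 to 8590 TPM in the putative ruptured libraries to 506 to 1556 TPM in the ruptured libraries. *Gja1* alone went from a median of 3603 to 134 TPM on that side. The part of the granulosa markers in the fall of *Inha*, *Inhba*, *Fst* and *Amhr2* was not tested.

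The interaction of side and hCG asks whether the difference between sides was larger with hCG or without it. It passed the test for 2 of the 8 genes, *Inhba* (-3.54, SE 0.68, adjusted p = 0.000383) and *Inha* (-1.78, SE 0.33, adjusted p = 0.000237), where 8.91% of all genes tested passed. For both, the log2 fold change of the ruptured over the unruptured side was lower post-hCG than without hCG. It was 4.46 without hCG and 0.89 post-hCG for *Inhba*. For *Inha* it was 1.71 and -0.08, and the latter did not pass the test between the sides. *Tgfbr3* came next (-0.81, SE 0.29, adjusted p = 0.0645), followed by *Fst* (0.89, SE 0.46, adjusted p = 0.24), and *Inhbb*, *Fstl1*, *Amhr2* and *Fstl3* had adjusted p of 0.336, 0.463, 0.478 and 0.804. A difference in the side effect of *Inhbb* or *Fst* was therefore not shown.

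TPM allows genes to be set against each other within a library. Median ratios are given of TPM as they stand, and tests were run on log2 ratios of TPM + 1, in which the added 1 weighs on the low genes *Inhbb* and *Fstl3*. The ratio of *Inha* to the sum of *Inhba* and *Inhbb* was 81.3 at the median (9.66 to 218) on the putative unruptured and 8.96 (3.33 to 72.1) on the putative ruptured side. Post-hCG it was 76.6 (37.7 to 118) on the unruptured and 44.1 (19.8 to 86.4) on the ruptured side. The α subunit transcript was therefore in excess in every library, and by the medians the excess was smallest on the putative ruptured side. As mean log2 ratios the sides differed by -2.75 without hCG (6.13 ± 1.21 and 3.38 ± 1.30, SD, permutation test, adjusted p = 6.67e-05) and by -0.86 post-hCG (adjusted p = 0.00137), and the media differed by 1.84 on the ruptured side (adjusted p = 0.000354) and by -0.05 on the unruptured side (adjusted p = 0.897).

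*Inhba* exceeded *Inhbb* in every library, but by very different factors. The median ratio was 65.4 on the putative unruptured, 309 on the putative ruptured, 12.2 on the unruptured and 8.28 on the ruptured side. The mean log2 ratio was 3.27 higher on the putative ruptured than the putative unruptured side (permutation test, adjusted p = 2.86e-05) and 2.66 higher with a pseudocount of 0.1, and with hCG it fell by 4.95 on the ruptured and by 1.39 on the unruptured side (adjusted p = 2.86e-05 and 0.00224). Post-hCG the sides differed by -0.29 (adjusted p = 0.0943), a difference that passed with a pseudocount of 0.1 or on CPM, as -0.63 and -0.62.

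The transcript of the antagonist *Fst* was set against that of the β subunits. The median ratio of *Fst* to *Inhba* plus *Inhbb* was 0.911 in putative unruptured and 0.0998 in putative ruptured libraries. Post-hCG the order was turned, with 0.300 on the unruptured and 0.907 on the ruptured side. The mean log2 ratio differed between sides by -2.82 without hCG (lower in 13 of 14 putative ruptured libraries than the putative unruptured median, permutation test, adjusted p = 0.000127) and by 1.26 post-hCG (higher in 12 of 13 ruptured libraries than the unruptured median, adjusted p = 0.0001). The ratio of *Fst* to *Fstl3* had medians of 14.9, 86.6, 0.571 and 4.84 in the same order of groups, so that *Fstl3* transcripts outnumbered those of *Fst* only in the unruptured group at the median, and all 4 differences between groups passed the test.

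**Figure D3:**
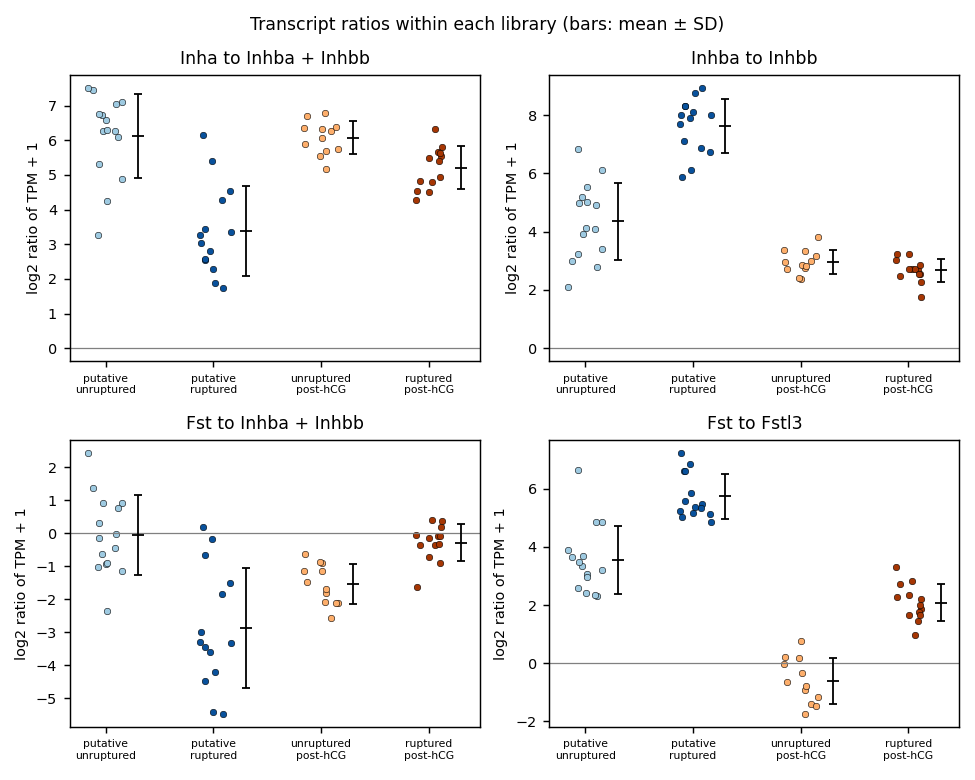
Log2 ratio of TPM + 1 within each library for 4 pairs of genes in the 4 groups, with a point per library and bars for the mean ± SD. The ratio of *Fst* to *Inhba* plus *Inhbb* is lowest on the putative ruptured side, with a mean log2 ratio of -2.87, against -1.54 on the unruptured side.

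Across the libraries of the putative ruptured group the 3 subunit genes rose and fell together. For *Inhba* and *Inhbb*, Pearson's r of log2(TPM + 1) was 0.98 and Spearman's rho 0.93 (n = 14, permutation test, p = 1e-05 and 2e-05, adjusted p = 0.00032 for both over 32 correlations), and r was 0.97 without the 2 libraries farthest from the median. For *Inha* and *Inhbb* r was 0.92 and rho 0.92 (permutation p = 4e-05 and 2e-05, adjusted p = 0.000533 and 0.00032), and for *Inha* and *Inhba* 0.89 and 0.87 (permutation p = 5e-05 and 0.00012, adjusted p = 0.000533 and 0.00128). The smallest p that the permutations can give is 1e-05. Granulosa markers varied from 2532 to 8590 TPM in these libraries, and their part was not tested. The labels give no batch.

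On the ruptured side post-hCG, only *Inhba* and *Inhbb* passed among the 7 pairs that could be computed (r = 0.82, rho = 0.86, n = 13, permutation p = 0.00062 and 0.00037, adjusted p = 0.00496 and 0.00296). Within the putative unruptured group *Inha* and *Inhba* had r = 0.67 and rho = 0.74 (n = 15, permutation p = 0.00636 and 0.00243, adjusted p = 0.0291 and 0.0156), and *Fstl1* and *Inha* had r = -0.71 and rho = -0.67 (permutation p = 0.00196 and 0.00765, adjusted p = 0.0125 and 0.0408). The relations of *Inhba* with *Inhbb* (r = 0.72, rho = 0.37) and with *Fst* (r = 0.66, rho = 0.45) in that group rested on the 2 farthest libraries, without which r was 0.26 and 0.42. No pair passed within the unruptured group post-hCG.

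**Figure D4:**
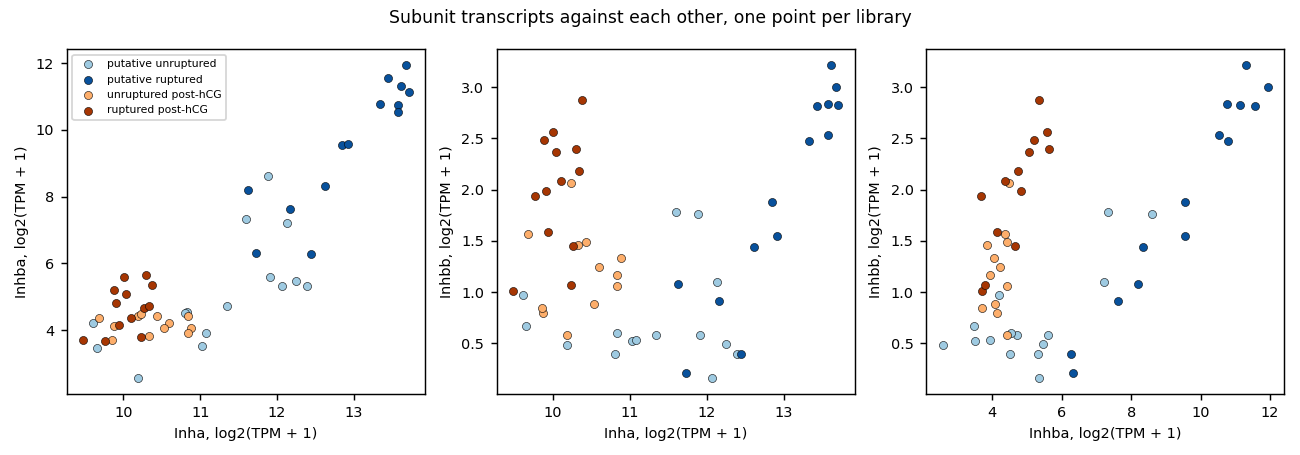
Levels of *Inha*, *Inhba* and *Inhbb* against each other as log2(TPM + 1), with a point per library coloured by group. The 14 putative ruptured libraries form a line in each panel, with r from 0.89 to 0.98.

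The genes most like each of the group were sought over 9888 genes and all 54 libraries, as Pearson's r of deviations from the group means, which is a description. *Inhba* was most like *Nap1l5* (r = 0.87), *Hsd17b1* (0.86), an enzyme of estradiol synthesis, and *Fam13a* (0.84), and *Inhbb* like *Nap1l5* (0.82), *Inhba* (0.82) and *Bok* (0.78). For *Inha* the values were 0.77 with *Gja1*, the gap junction gene of granulosa cells, and 0.76 with *Mid1ip1*. The other genes had lower values at best: *Fstl1* with *Tubb6* (0.76), *Lhfp* (0.71) and *Csrp1* (0.70), *Fst* with *Plekhd1* (0.67), *Fgfbp3* (0.66) and *Snx18* (0.63), *Amhr2* with *Mcrs1* (0.63), *Kdelr1* (0.62) and *Cat* (0.62), and *Tgfbr3* with *Dnmbp* (0.63), *Gpc6* (0.59) and *Lrp1* (0.58).

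Among the receptors and co-receptors of the wider family, 7 of 15 listed were tested between the sides without hCG. Of these, 2 were higher and 2 lower on the putative ruptured side, beside 8.84% and 8.96% of all genes tested. *Bmpr1b* and *Bmpr2*, receptors for BMPs, were higher on the putative ruptured side, and *Tgfbr2* (-1.28, SE 0.25, adjusted p = 0.000552) and *Eng* (-1.38, SE 0.49, adjusted p = 0.0466), receptors for TGF-β, were lower. The activin type II receptor gene *Acvr2a* did not pass in any comparison, with log2 fold changes between -0.15 and 0.02. Post-hCG, 1 of 5 was called between the sides, *Tgfbr2*, at -1.15 (SE 0.17), beside 21.4% of all genes tested. With hCG *Bmpr1b* fell by 2.50 (SE 0.25) on the unruptured and by 2.91 (SE 0.21) on the ruptured side, and 3 receptors fell and 1 rose on each side, of 7 and 6 tested, beside 27.7% and 30.4% of all genes lower and 25.4% and 29.7% higher, with median log2 fold changes of -0.48 and -0.34 against -0.03 and 0.00 for all genes.

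Of the SMADs and intracellular partners listed, some carry the signal to the nucleus and some restrain it, such as *Tgif1*. Counts over this list therefore give no direction of signaling. With hCG 9 of 12 fell on the unruptured side, and 11 of 12 fell and 1 rose on the ruptured side, beside 27.7% and 30.4% of all genes that fell, with medians of -0.44 and -0.56 against -0.03 and 0.00 for all genes. Between the sides, 1 of 12 (*Tgif1*, higher) was called without hCG and 1 of 10 (*Smad3*, lower) post-hCG. Of all genes tested, 17.8% and 21.4% were called in these comparisons. *Smad3*, the mediator of activin signals, was 3.20 to 14.1 TPM on the ruptured and 8.88 to 32.5 TPM on the unruptured side (log2 fold change -0.78, SE 0.15, adjusted p = 0.000273). Its interaction of side and hCG passed the test (-0.78, SE 0.17, adjusted p = 0.00199), as did that of *Tgif1*, a co-repressor of SMADs (-0.63, SE 0.20, adjusted p = 0.0389). These were 2 of 13 genes of the list tested for the interaction, beside 8.91% of all genes tested.

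The genes listed for precursor processing and matrix handling serve the wider TGF-β family, not only inhibin and activin, and mostly rose with hCG. On the unruptured side 6 of 8 rose and 1 fell, and on the ruptured side 4 of 6 rose and 1 fell, with medians of 1.17 and 2.12. Of all genes tested, 25.4% and 29.7% rose. *Pcsk5*, a proprotein convertase, rose by 3.28 (SE 0.24) and 3.60 (SE 0.23), and *Ltbp1*, which anchors latent TGF-β in the matrix, by 2.82 (SE 0.14) and 3.25 (SE 0.18). *Furin*, named here after its values had been seen because it cleaves inhibin and activin precursors, was 1.89 to 7.08 TPM on the putative unruptured and 10.01 to 23.2 TPM on the unruptured side, a log2 fold change of 2.14 (SE 0.16, adjusted p = 4.39e-13). Between the sides *Fbn1*, a matrix microfibril gene, was lower on the putative ruptured side (-1.44, SE 0.30), and post-hCG *Ltbp1* was higher (0.80, SE 0.11) and *Bmp1* lower (-0.49, SE 0.14) on the ruptured side.

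Of the transcription factors known to act on *Inha*, *Amh* or *Fst*, 6 of 10 fell and 1 rose with hCG on the unruptured side, and 7 of 9 fell and 2 rose on the ruptured side. Their median log2 fold changes were -0.89 and -0.83, and 27.7% and 30.4% of all genes tested fell. *Esr2*, the estrogen receptor of granulosa cells, fell by 4.31 (SE 0.45) and 5.24 (SE 0.33). Without hCG *Esr2* (1.52, SE 0.35, adjusted p = 0.00214) and *Nr5a2* (1.10, SE 0.17, adjusted p = 2.48e-05), a nuclear receptor of granulosa cells, were higher on the putative ruptured side, and post-hCG *Gata6* (0.59, SE 0.19, adjusted p = 0.0271) was higher on the ruptured side. Between the sides 2 of 10 factors were higher and 1 lower without hCG, and 2 of 7 higher and 1 lower post-hCG. Of all genes tested, 17.8% and 21.4% were called. *Esr2* and *Nr5a2* are also among the granulosa markers counted above.

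Of the genes listed as targets of activin or SMAD2/3, *Fshr*, the FSH receptor, was higher on the putative ruptured side by 2.12 (SE 0.36, adjusted p = 8.06e-05), with a median of 3.21 against 0.70 TPM. *Fshr* is also among the granulosa markers counted above. Its interaction with hCG passed the test (-1.49, SE 0.45, adjusted p = 0.0258), as 1 of 6 targets tested, beside 8.91% of all genes tested. *Lhcgr*, the LH receptor, rose with hCG by 3.90 (SE 0.53) and 4.20 (SE 0.47) and was 1.28 (SE 0.26) higher on the ruptured than the unruptured side. *Ctgf*, a matricellular growth factor gene, fell by 2.93 (SE 0.30) and 3.30 (SE 0.28). Some targets are also in other lists. *Ltbp1* is in the precursor processing list, *Smad7* and *Skil* are in the SMAD list, and *Lhcgr* is an LH response marker. In all 1 of 5 targets tested was called between the sides without hCG and 2 of 5 post-hCG, beside 17.8% and 21.4% of all genes. With hCG 3 were higher and 2 lower on the unruptured side, and 2 and 2 on the ruptured side. Of all genes 53.1% and 60.1% were called with hCG on these sides. None of the 13 other ligands and binding proteins listed passed the filter on low counts in a comparison of 2 groups.

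**Figure D5:**
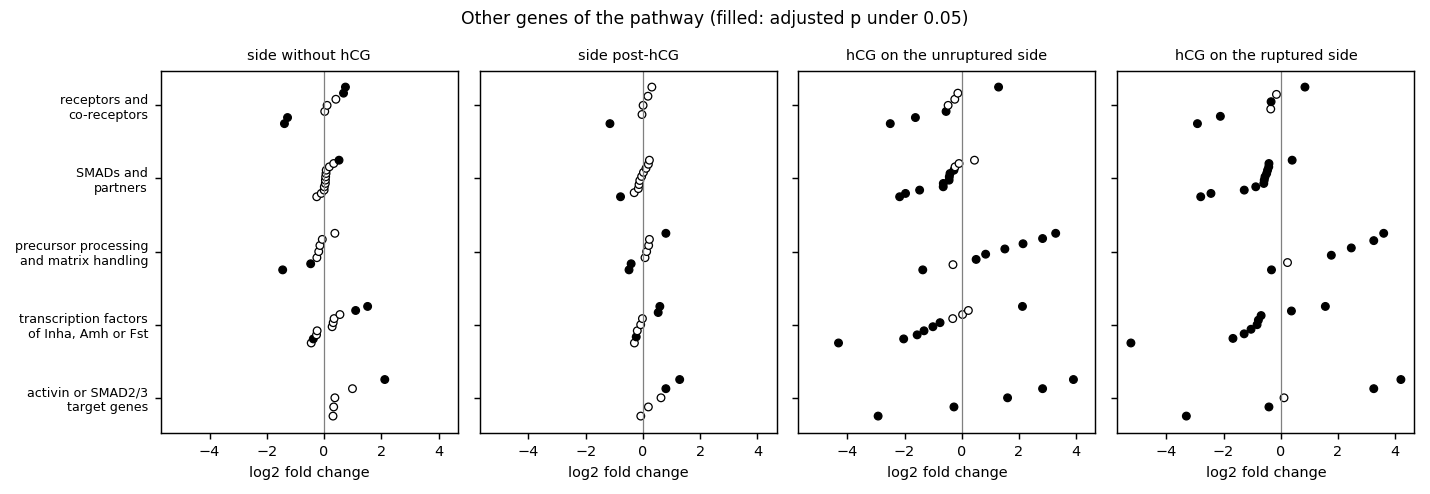
Log2 fold changes (horizontal axis) of the other pathway genes by list in the 4 comparisons of 2 groups, with a point per gene, filled where the adjusted p was under 0.05. With hCG the points of the SMAD list lie mostly left of 0 (medians -0.44 and -0.56) and those of the precursor processing list mostly right of it (medians 1.17 and 2.12).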

How the data were processed

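RNA of single follicle sides was amplified with Smart-Seq2 and sequenced as paired-end libraries, 54 in 4 groups set by the sample titles. The authors aligned reads to GRCm38 with HISAT2 and used ComBat-seq against batch effects. They deposited estimated counts per gene, fractions included, and TPM values, which are counts scaled by transcript length and library. The counting program, the annotation, the batches and whether the deposited tables precede the correction are not given in the sources used here. All columns were matched, with 0 left over, and the TPM of the listed genes summed to 585982 to 678417 per library.

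Rounded counts passed filterByExpr at a count of 10 and a total of 15. After TMM scaling, 5 comparisons were fitted in R 4.3.3 with the quasi-likelihood F-test of edgeR 4.0.16, with Benjamini-Hochberg adjustment over all genes tested and a threshold of 0.05. The SE is the absolute log2 fold change divided by the square root of F. The script was tested on simulated data first. Ratios within a library and correlations used log2(TPM + 1) and two-sided permutation tests of 100000 resamples, adjusted over 20 ratio tests, of which the 4 of *Amh* to *Amhr2* are not given, and over the 32 of 36 correlations that could be computed, with numpy 2.4.6 under Python 3.11.15. Alternatives were DESeq2 1.42.0, limma 3.58.1 on TPM with a pseudocount of 1 or 0.1, other scalings, no filter, thinning to 1497071 counts, all 4 groups in one fit, a replicate block and refits without single libraries. A fit without libraries whose markers stood apart and ratios of TPM with nothing added were chosen after seeing the data.

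The 9 genes, the pathway and marker lists and the tests were chosen with earlier results of these data known. All 9 genes are named in every comparison, and over all pathway lists together up to 3 genes with the largest change past the threshold in each direction of a comparison. Named as most like each gene are the 3 with the highest r among genes averaging 1 TPM or more, except 1 that is not reported here. Positions are those of GENCODE for GRCm38. Intervals and limits from counts cover counting error only. The authors' comparisons, the single-cell data and the images were not used here.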

Additional observations from a re-analysis of the deposited data

Results flagged for a closer look

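The effect of side differed between the media, by edgeR's test of the interaction of side and hCG, for *Inha* (-1.78, SE 0.33, adjusted p = 0.000237) and *Inhba* (-3.54, SE 0.68, adjusted p = 0.000383). The *Inha* interaction was -1.95 and that of *Inhba* -3.54 without the 3 libraries whose theca or oocyte markers stood apart. Of the listed pathway genes, the same held for *Smad3* (-0.78, SE 0.17, adjusted p = 0.00199), *Tgif1* (-0.63, SE 0.20, adjusted p = 0.0389) and *Fshr* (-1.49, SE 0.45, adjusted p = 0.0258). They were 2 of 13 tested in the SMAD list and 1 of 6 in the target list. None of 8 receptors, 8 precursor processing genes and 10 transcription factors passed, beside 8.91% of all genes tested. *Smad3* had median levels of 14.9 and 14.5 TPM for the putative unruptured and ruptured sides and of 13.1 and 7.48 TPM on the same sides post-hCG. Single libraries far from their group were not sought, as all 4 groups hold more than 10 libraries.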

How the results depend on the processing

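No called log2 fold change of the 9 genes changed its sign under any alternative. Of 373 values under settings other than leaving out single libraries, 358 kept their side of the threshold, 12 lost a call and 3 gained one, and the cause was not tested. Lost were *Inhba* post-hCG with limma (0.50 and 0.52 with a pseudocount of 1 and 0.1) and with all 4 groups in one fit (0.90), *Inhba* with hCG on the unruptured side with limma (-0.92 and -0.93), *Inhbb* there with library totals (0.59), all 4 groups (0.81) and without the libraries that stood apart (0.71), *Fstl1* there with limma (-0.55 and -0.56), and *Amhr2* post-hCG on thinned counts (-0.53). Gained were *Fstl1* with hCG on the ruptured side with library totals (-0.63) and the interaction of *Tgfbr3* with limma (-0.81 and -1.04). In 435 values from refits without single libraries 9 calls were lost, 8 for *Amhr2* post-hCG (-0.55 to -0.39 over all refits) and 1 for *Inhbb* with hCG on the unruptured side (0.66 to 1.09). Each library was left out in turn for the comparisons of sides, but with hCG only the library richest in a gene's counts in each group, so 2 refits a gene, and for the interaction none. *Fstl3*, not tested between the sides without hCG, was lower on the putative ruptured side in 5 alternatives that kept it, by -0.98 to -0.55.

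Between the sides without hCG limma called 1053 and 1052 genes, against 1613 with edgeR. The log2 ratio of *Inhba* to *Inhbb* between the sides post-hCG passed with a pseudocount of 0.1 (-0.63) and on CPM (-0.62). By Pearson's r, 3 correlations in the putative unruptured group lost their call on CPM, *Inha* with *Inhba* (adjusted p = 0.055) and *Inhba* with *Inhbb* and with *Fst* (adjusted p = 0.0595 for both), and 1 in the unruptured group gained it, *Inhba* with *Fst* (r = 0.71, adjusted p = 0.0493). By Spearman's rho no call was lost, and *Fstl1* with *Inha* in the putative ruptured group gained one on CPM (-0.72, adjusted p = 0.025). With library totals the median log2 fold change of all genes moved to -0.14 between the sides post-hCG, -0.25 and -0.33 with hCG on the unruptured and ruptured sides and -0.11 for the interaction, and with limma on log2(TPM + 1) to -0.21, 0.04, -0.14 and -0.19. Genes called higher and lower were then 397 and 1830 (limma 213 and 2139) in place of 862 and 971, 1455 and 3844 in place of 2365 and 2582, 1376 and 4242 (limma 1564 and 3001) in place of 2532 and 2597, and 230 and 660 (limma 85 and 674) in place of 426 and 466. Between the sides without hCG library totals gave 585 and 905 in place of 801 and 812.

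Whether libraries with the same replicate number came from the same follicle is not given. At most 2 of 12 to 14 same-numbered pairs deviated together with a correlation over 0.1 in any comparison. This cannot exclude pairing, since opposite sides of a follicle need not deviate together. With the replicate block *Inhba* with hCG on the unruptured side was -0.62 (adjusted p = 0.0958), and no other call of the 9 genes or of the ratios changed.

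Depth limits *Amh*, *Inhbb* and *Fstl3*, which had at most 2, 120 and 67 counts in a library.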
